A study of Homo sapiens with 9 samples.

Results

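The genes described here encode the oxygen-sensing machinery of the hypoxia-inducible factor (HIF): HIF1A, EPAS1, ARNT, ARNT2, VHL, EGLN1, EGLN2, EGLN3 and HIF1AN. Members were taken as every probe set annotated to exactly 1 of these 9 symbols, and the rule uses no measured value, although the genes were proposed with results of these arrays known. This gave 24 probe sets, of 54613 probe sets other than Affymetrix controls on the array, and 9 genes of the 19775 that have a probe set with a single symbol. EGLN2 is represented by a single probe set here, because 2 others carry several symbols and were left out.

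The study measured RNA on 9 Affymetrix arrays, 3 in each of 3 groups, all from H69, an established human small cell lung cancer line that grows in suspension and has neuroendocrine features. Control cultures received the vehicle DMSO, although their treatment field reads none. The other groups received PIK75 at 100 nM or TGX221 at a labelled 1 mM, each for 24 h in full medium in a humidified incubator. Both compounds inhibit phosphoinositide 3-kinases, and TGX221 prefers the isoform encoded by PIK3CB. The labelled TGX221 concentration cannot be verified here, unit included, and the doses of the inhibitors differ. No low-oxygen group is among the arrays analysed here. All values come from 1 cell line, and the labels do not say whether the arrays of a group came from separate cultures, so each p-value is set against array-to-array variation that could be technical.

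HIF is a pair of proteins, an oxygen-labile alpha subunit and a stable beta subunit. In oxygenated cells the EGLN prolyl hydroxylases use oxygen to mark the alpha subunit, the VHL protein binds the marked subunit and hands it to a ubiquitin ligase, and the proteasome destroys it. HIF1AN (also called FIH) hydroxylates an asparagine of the alpha subunit and so blocks its coactivators. When oxygen is short the alpha subunit persists, pairs with ARNT or ARNT2 and switches on genes of glycolysis, angiogenesis and mitophagy, and also EGLN1 and EGLN3, which are themselves known HIF targets. Much of this control acts on protein, which arrays do not measure.

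HIF binds DNA at a short core, ACGTG or GCGTG, within hypoxia response elements. The 250 bases before the annotated start are shown for the 3 prolyl hydroxylase genes, of which EGLN3 and EGLN1 carry the largest PIK75 differences below. The sequences come from RefSeq on GRCh38.p14 and run 5′ to 3′ on the strand of the gene. They have capitals where ACGTG or GCGTG was found on either strand.
EGLN1 (chr1:231422288-231422537, minus strand): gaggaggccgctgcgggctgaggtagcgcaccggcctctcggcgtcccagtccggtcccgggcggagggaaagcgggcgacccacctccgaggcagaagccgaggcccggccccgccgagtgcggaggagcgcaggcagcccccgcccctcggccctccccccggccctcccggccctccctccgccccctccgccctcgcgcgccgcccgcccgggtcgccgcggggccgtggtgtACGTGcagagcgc
EGLN2 (chr19:40798941-40799190, plus strand): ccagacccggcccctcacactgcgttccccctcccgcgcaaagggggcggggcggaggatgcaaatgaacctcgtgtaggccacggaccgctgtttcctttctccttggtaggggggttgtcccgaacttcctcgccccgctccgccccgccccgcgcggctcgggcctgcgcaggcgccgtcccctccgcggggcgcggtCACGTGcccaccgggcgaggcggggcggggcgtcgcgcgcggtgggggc
EGLN3 (chr14:33951075-33951324, minus strand): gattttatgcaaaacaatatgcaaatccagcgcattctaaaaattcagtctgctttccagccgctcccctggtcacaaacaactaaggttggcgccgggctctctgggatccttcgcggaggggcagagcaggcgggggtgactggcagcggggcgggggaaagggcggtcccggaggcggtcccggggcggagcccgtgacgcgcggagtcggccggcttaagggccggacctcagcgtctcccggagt
The EGLN1 window holds 1 ACGTG, from 13 to 9 bases before the start. The EGLN2 window holds ACGTG on both strands at 1 overlapping place, from 49 to 44 bases before the start, while the window of its other annotated start holds none. In the EGLN3 window no match to these letters was found. Of the 9 members, 7 have such a window, and ARNT2 and VHL are without one. The windows of HIF1A and EPAS1 hold 1 GCGTG each, at 1 of the 2 annotated starts for HIF1A. Those of ARNT and HIF1AN hold none. Over all 35116 promoters of this length, 18.5% hold ACGTG, 32.2% hold GCGTG and 43.2% hold either, so a match is common and describes the letters only.

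With PIK75, EGLN3 and EGLN1, the inducible prolyl hydroxylases, fell most, to 2.94-fold and 2.01-fold lower than control by their brightest probe sets. The EGLN1 probe sets did not move alike, as 224314_s_at did not pass the test and 223045_at was called higher, by 0.34 on the log2 scale. ARNT2, a beta subunit best known from neurons, was 1.66-fold lower. EGLN2, the prolyl hydroxylase not known as a hypoxia-induced gene, went the other way and was 1.43-fold higher. HIF1A fell by 0.18 on the log2 scale, a call lost in 9 of 22 alternatives, and neither HIF1AN nor VHL passed the test. With TGX221 no member passed the test. A difference was called when its limma p-value, adjusted by Benjamini-Hochberg over all 54613 probe sets, was below 0.05.

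**Figure D1:**
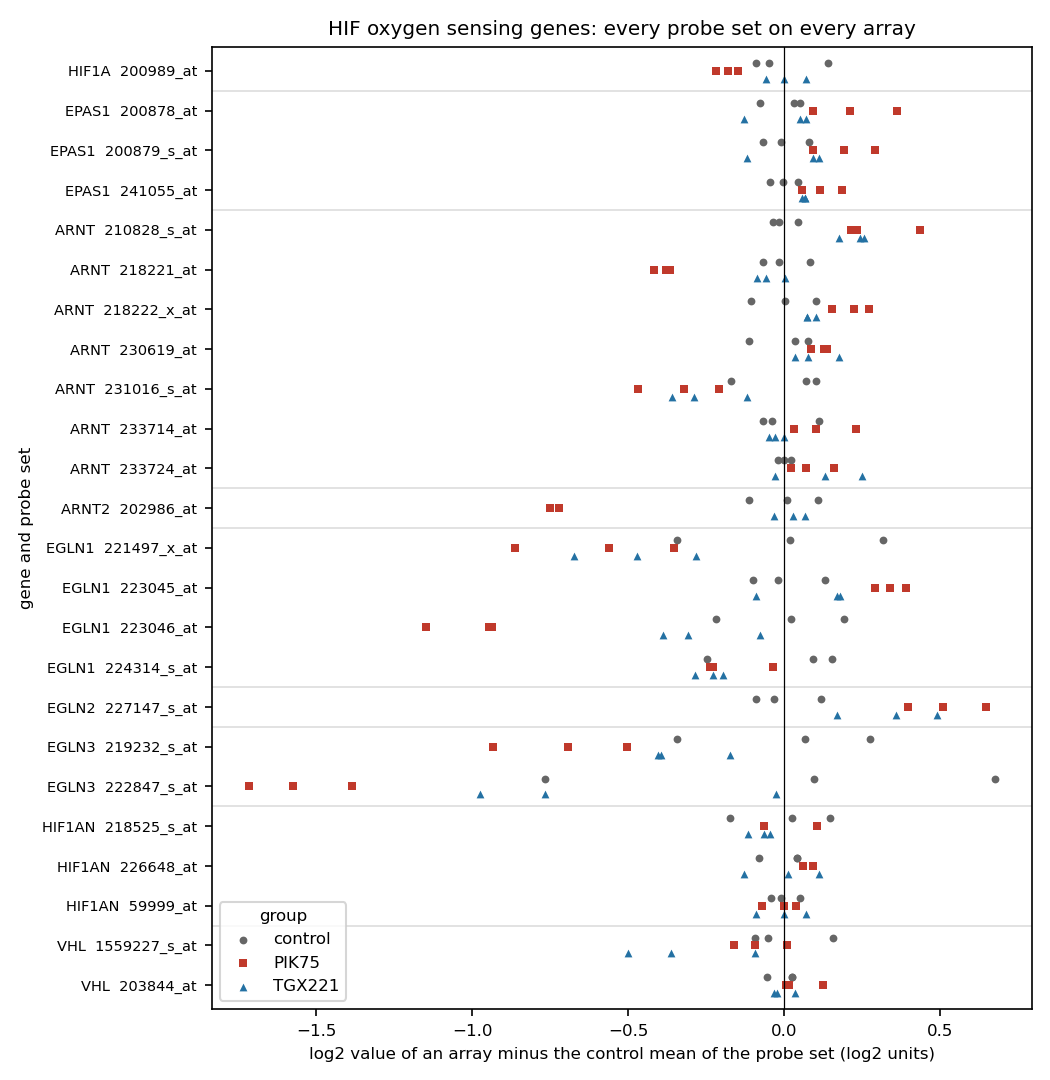
Log2 value of each of the 24 member probe sets on each of the 9 arrays, minus the mean of that probe set over the 3 control arrays. Both EGLN3 probe sets, EGLN1 223046_at and ARNT2 lie below 0 on all PIK75 arrays, and EGLN2 lies above 0 on all PIK75 and TGX221 arrays.

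Counted over the 24 probe sets, 5 rose and 8 fell with PIK75, so 13 were called (54.2%), against 50.2% of all probe sets on the array. The share called is near the background. All probe sets together gave 30.3% called higher and 19.9% called lower. The 5 member probe sets that were called and at least 1.5-fold apart were all lower, in EGLN1 (223046_at and 221497_x_at), EGLN3 (both) and ARNT2, where 9.41% of all probe sets passed this rule, 8.2% in the lower direction. The PIK75 and control arrays did not overlap for 18 of the 24 (57.5% of all probe sets). The median member difference was 0.02, beside 0.08 over all probe sets. When only the brightest probe set of each gene was tested, EPAS1 and EGLN2 were called higher, HIF1A, ARNT, ARNT2, EGLN1 and EGLN3 lower, and HIF1AN and VHL not, while 60.4% of all genes were called.

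A few properties of the arrays moved with PIK75. Medians of all probe sets were 7.26 to 7.27 in control, 7.27 to 7.29 with TGX221 and 7.31 to 7.33 with PIK75. The values were spread less on the PIK75 arrays, with interquartile ranges of 2.54 to 2.58. These ranges were 2.70 to 2.71 in control and 2.67 to 2.69 with TGX221. The hybridization spikes, added after labelling, averaged 11.2 in control and TGX221 arrays and 11.5 in PIK75 arrays. The actin 3′ minus 5′ value, a sign of RNA degradation, was 0.24 to 0.44 in control, 0.26 to 0.41 with TGX221 and 0.47 to 1.13 with PIK75, with PIK75 array 5 the highest, while that of GAPDH stayed between -0.05 and 0.08 throughout. Setting the arrays to the hybridization spikes moved the median PIK75 difference of all probe sets from 0.08 to -0.27, so differences below are relative to the deposited scale, and the part of these spikes in the results was not tested beyond that rescaling. Of 10 neuroendocrine markers 9 were measured, with list means of 11.7 on the control arrays and of 11.2 to 11.3 with PIK75. With PIK75, 6 fell and 1 rose (25.2% and 35.2% of all genes). List means were also taken for endothelial (7.05 to 7.11 in control), fibroblast (7.45 to 7.54) and leukocyte markers (6.43 to 6.54), and arrays have no zero, so absence of a marker cannot be shown. With PIK75, 4 of 5 fibroblast markers (list means 7.69 to 7.78) and 2 of 4 leukocyte markers (6.57 to 6.69) were called higher on the deposited scale, as were 35.2% of all genes. The leukocyte marker CD3E lost its call in 8 of 14 alternatives and turned sign in 1 other. No marker of these lists was called higher with the hybridization spikes. Their part in the results was not tested.

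HIF1A encodes the oxygen-labile alpha subunit of HIF in most cells. Its probe set 200989_at read 12.31, 12.27 and 12.50 on control arrays 1, 3 and 5, 12.21, 12.18 and 12.14 on PIK75 arrays 1, 3 and 5, and 12.36, 12.43 and 12.30 on TGX221 arrays 2, 3 and 5. All 3 PIK75 arrays were below all others, by a small margin, and TGX221 overlapped control. The PIK75 difference was -0.18 (SE 0.0649, 95% interval -0.32 to -0.04, limma adjusted p = 0.0353), and that of TGX221 was 0.00 (-0.14 to 0.15, adjusted p = 0.983). The PIK75 call was lost without control array 5 (-0.11, adjusted p = 0.146), PIK75 array 3 (0.071) or PIK75 array 5 (0.0925), with actin 3′ minus 5′ as a covariate (0.122), and under cyclic loess scaling (-0.06, 0.514). The call was also lost when only the 2 groups compared were fitted (limma adjusted p = 0.0527). As these are RNA levels of whole cultures, fewer cells of one kind and less RNA per cell cannot be told apart, here and below.

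EPAS1 encodes the other main alpha subunit, HIF-2 alpha, best known from endothelium and kidney. Its brightest probe set, 200879_s_at, read 7.08, 6.99 and 6.93 in control, 7.29, 7.19 and 7.09 with PIK75, and 7.11, 6.88 and 7.09 with TGX221. The PIK75 arrays were all above control. The difference of 0.19 (SE 0.0746) had an adjusted p of 0.0531 over all probe sets by limma and of 0.0427 when only the brightest probe set of each gene was tested. The difference was below the threshold in 7 of 21 alternatives, that fit included. Among them were the fits without control array 1 (0.0463), PIK75 array 5 (0.0322) or TGX221 array 3 (0.0309), and with the actin covariate (0.31, 0.0139). In the others the adjusted p reached 0.622, and with the hybridization spikes the difference turned to -0.16 (0.0989). The dimmer 200878_at read 5.40, 5.27 and 5.38 in control, 5.56, 5.44 and 5.71 with PIK75 and 5.40, 5.42 and 5.22 with TGX221, a PIK75 difference of 0.22 (SE 0.0779, adjusted p = 0.0331). That call was lost without control array 3 (0.116) or 5 (0.0583), and without PIK75 array 1 (0.0613) or 5 (0.125). It was also lost with the actin covariate (0.11, 0.376) and under all 4 other scalings, the sign turning with the hybridization spikes (-0.13). Both 200878_at and 241055_at (0.12, adjusted p = 0.0735, or 0.0464 without PIK75 array 3) have means below 6, as 25% of all probe sets do. Among endothelial markers 2 of 5 rose with PIK75, as did 35.2% of all genes. The call of VWF, 1 of the 2, was lost in 7 of 14 alternatives, and its sign turned in 1 other. The list means of the endothelial markers were 7.05 to 7.11 in control, 7.16 to 7.25 with PIK75 and 7.0 to 7.05 with TGX221. The part of such signal in the EPAS1 values was not tested. With TGX221 the 3 EPAS1 probe sets differed from control by 0.00 to 0.06 (adjusted p = 0.629 to 0.999).

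ARNT encodes the common beta subunit of HIF and also partners the aryl hydrocarbon receptor. Its 7 probe sets did not move alike. The brightest, 218221_at, read 8.70, 8.65 and 8.80 in control, 8.34, 8.35 and 8.30 with PIK75 and 8.66, 8.72 and 8.63 with TGX221. PIK75 arrays lay apart from both other groups, and the fall of 0.39 from control had an SE of 0.0546 and an adjusted p of 0.000119. A second probe set, 231016_s_at, also fell with PIK75, from 6.43, 6.67 and 6.70 to 6.39, 6.13 and 6.28 (-0.33, adjusted p = 0.0105). In contrast 210828_s_at rose from 6.20, 6.12 and 6.14 to 6.39, 6.37 and 6.59 (0.29, adjusted p = 0.0032), and 218222_x_at rose from 7.65, 7.75 and 7.54 to 7.80, 7.87 and 7.92 (0.21, adjusted p = 0.0127). The latter call was lost without control array 5 (adjusted p = 0.0561), and neither rise was called with the poly-A spikes (0.20 and 0.13) or the actin covariate (0.19 and 0.18). With the hybridization spikes they turned to -0.06 and -0.14. The remaining 3 probe sets differed by 0.08 to 0.12 and were not called. On TGX221 arrays 2, 3 and 5, 210828_s_at read 6.41, 6.33 and 6.40, above every control array, but the difference of 0.23 had an adjusted p of 0.125.

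ARNT2, the beta subunit found mainly in neurons, had the smallest p of all members. Its only probe set, 202986_at, read 8.36, 8.58 and 8.48 in control, 7.75, 7.75 and 7.72 with PIK75, and 8.44, 8.54 and 8.50 with TGX221. The PIK75 arrays lay within 0.03 of each other and far below the rest, while TGX221 arrays sat among the controls. The fall with PIK75 was 0.73 on the log2 scale (SE 0.0608, 95% interval -0.87 to -0.60, limma adjusted p = 1.56e-06). TGX221 gave 0.02 (-0.12 to 0.15, adjusted p = 0.925). ARNT2 kept its direction and call under each of the alternatives run, among them every fit without 1 array. Of the 9 neuroendocrine markers measured, 6 fell with PIK75 (25.2% of all genes) and 1, SYP, rose (35.2%). SYP was at -0.15 and not called with the hybridization spikes, and its call was lost in 6 more of the 14 alternatives. SNAP25, a synaptic vesicle fusion protein, fell by 1.5 with PIK75. DDC, an amine-producing enzyme, fell by 1.21, whereas the secretory granule protein CHGA differed by -0.05 and was not called.

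EGLN1 encodes PHD2, the prolyl hydroxylase that sets HIF1A stability in most cells. Its brightest probe set, 223046_at, read 11.80, 11.97 and 11.56 in control, 10.63, 10.84 and 10.83 with PIK75, and 11.47, 11.70 and 11.39 with TGX221. All PIK75 arrays were below all others, and TGX221 arrays overlapped the lower controls. The PIK75 difference was -1.01 (SE 0.108, 95% interval -1.24 to -0.77, limma adjusted p = 1.31e-05) and the TGX221 difference was -0.26 (-0.49 to -0.02, adjusted p = 0.264). A second probe set, 221497_x_at, read 9.58, 9.88 and 9.22 in control, 9.0, 9.21 and 8.70 with PIK75 and 9.09, 9.28 and 8.89 with TGX221. It fell by 0.59 with PIK75 (SE 0.162, adjusted p = 0.0103), a call lost with the actin covariate (-0.34, 0.19), and differed by -0.47 with TGX221 (adjusted p = 0.185). Of the others, 224314_s_at was not called (-0.16, adjusted p = 0.164, but -0.29 and 0.00975 without control array 5).

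The fourth EGLN1 probe set, 223045_at, went the other way. It read 7.30, 7.15 and 7.07 in control, 7.51, 7.56 and 7.46 with PIK75 and 7.35, 7.08 and 7.34 with TGX221, with all PIK75 values above the rest. The rise of 0.34 (SE 0.0803) had an adjusted p of 0.00475. It was not called under cyclic loess (0.20, adjusted p = 0.0543) and became -0.01 with the hybridization spikes.

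EGLN2 encodes PHD1, a prolyl hydroxylase known to respond to oestrogen. Its probe set 227147_s_at read 8.48, 8.33 and 8.27 in control, 8.76, 8.87 and 9.01 with PIK75, and 8.72, 8.53 and 8.85 with TGX221. Every array of either inhibitor lay above every control array. The rise with PIK75 was 0.52 (SE 0.0904, limma adjusted p = 0.000651), reduced to 0.17 and an adjusted p of 0.115 with the hybridization spikes. The TGX221 difference of 0.34 had an unadjusted p of 0.00305 and an adjusted p of 0.108, which fell to 0.0447 without TGX221 array 3.

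EGLN3 encodes PHD3, the most strongly hypoxia-induced of the prolyl hydroxylases, also studied in neuronal cell death. Its brightest probe set, 222847_s_at, read 9.67, 10.25 and 8.81 on control arrays 1, 3 and 5, 7.86, 8.19 and 8.0 with PIK75, and 8.81, 9.55 and 8.60 on TGX221 arrays 2, 3 and 5. The controls were widely spread (9.58 ± 0.72, SD, n = 3), the PIK75 arrays were close together (8.02 ± 0.16, n = 3) and lower than all of them, and TGX221 lay between (8.99 ± 0.50, n = 3). The PIK75 difference was -1.56 (SE 0.305, 95% interval -2.22 to -0.89, limma adjusted p = 0.00144). It remained called with any 1 array left out, at -1.94 to -1.22. The TGX221 difference was -0.59, with an interval of -1.26 to 0.08 and an adjusted p of 0.369. The dimmer 219232_s_at read 7.01, 7.22 and 6.60 in control, 6.44, 6.25 and 6.01 with PIK75 and 6.55, 6.77 and 6.54 with TGX221. It too fell with PIK75 (-0.71, SE 0.143, adjusted p = 0.00169), and differed by -0.32 with TGX221 (adjusted p = 0.286).

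**Figure D2:**
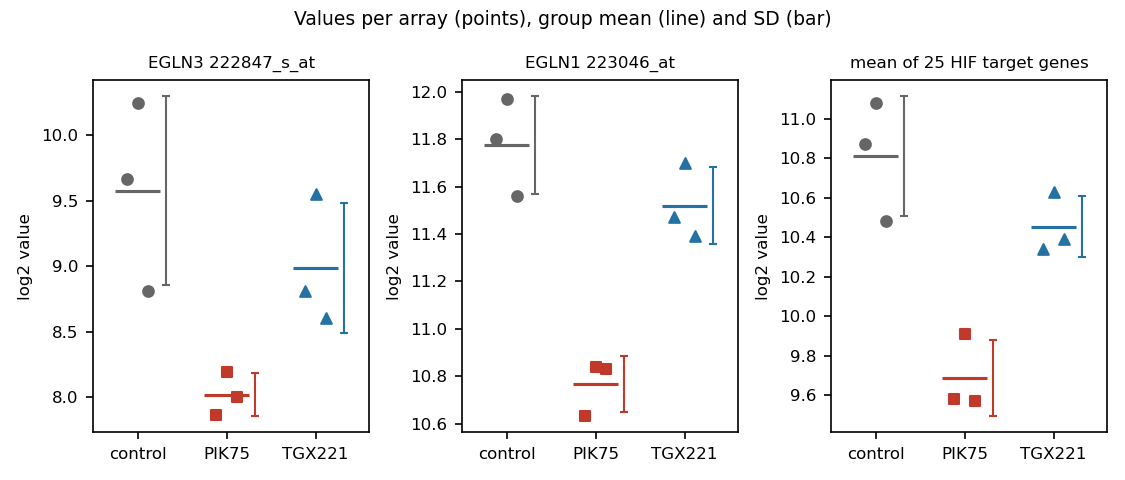
Log2 value on each array of EGLN3 222847_s_at, EGLN1 223046_at and the mean of 25 HIF target genes, with the mean and SD of the 3 arrays of each group. The 3 PIK75 arrays lie below all control arrays in each panel, and control array 3 is the highest and control array 5 the lowest of its group.

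HIF1AN, the asparaginyl hydroxylase, did not pass the test with any of its 3 probe sets. The brightest, 59999_at, read 8.14, 8.05 and 8.08 in control, 8.02, 8.13 and 8.09 with PIK75 and 8.16, 8.0 and 8.09 with TGX221. The 3 groups overlapped throughout. The PIK75 difference was -0.01, with a 95% interval of -0.14 to 0.11. With the hybridization spikes, which moved all probe sets down, it was -0.36 (adjusted p = 0.000475). The others differed by -0.01 (218525_s_at) and 0.07 (226648_at) with PIK75, and by -0.08 and 0.00 with TGX221.

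VHL, the substrate-binding subunit of the ubiquitin ligase, was read by 1559227_s_at at 7.53, 7.74 and 7.49 in control, 7.42, 7.49 and 7.59 with PIK75 and 7.22, 7.49 and 7.08 with TGX221. PIK75 and control arrays overlapped, with a difference of -0.08 (95% interval -0.30 to 0.14, limma adjusted p = 0.511), or -0.43 (0.000345) with the hybridization spikes. The TGX221 difference of -0.32 had an unadjusted p of 0.00722 and an adjusted p of 0.147, or 0.0406 without TGX221 array 3. The dim 203844_at differed by 0.05 and -0.01.

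**Figure D3:**
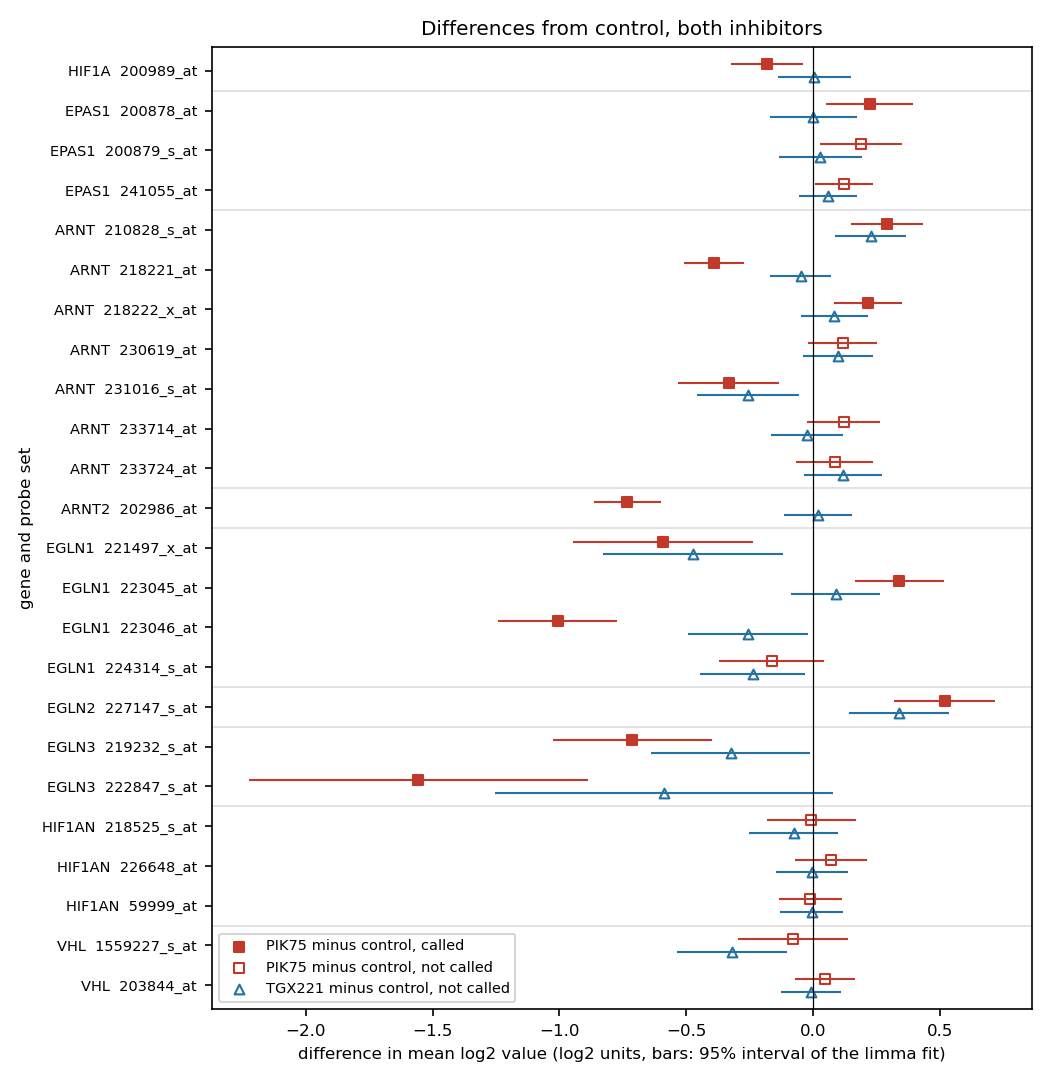
Log2 difference from control with its 95% interval for each of the 24 member probe sets, for PIK75 and for TGX221, with filled points where the limma adjusted p was below 0.05. PIK75 differences run from -1.56 (EGLN3) to 0.52 (EGLN2), and none of the TGX221 points is filled.

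Whether probe sets of 1 gene differed in their response to PIK75 was tested directly, on the brightest probe set minus each other one. Of 15 such pairs among the members 9 were called, beside 44.8% of the 21316 pairs of all genes. In all 9 the brightest probe set fell relative to the other, and the direction of the pairs of all genes was not counted. The smaller spread of values on the PIK75 arrays, given above, bears on bright and dim probe sets, and its part in these pairs was not tested. The PIK75 difference of EGLN1 223046_at minus that of 223045_at was -1.35 (SE 0.137, limma adjusted p = 1.47e-06). Against 224314_s_at it was -0.84 (1.79e-06), and against 221497_x_at -0.41 (0.0113). The last of these was lost without control array 5 (0.0532), PIK75 array 1 (0.0527) or PIK75 array 3 (0.058). The EGLN3 probe sets both fell, and 222847_s_at lay a further -0.84 below 219232_s_at in its change (0.00375). ARNT 218221_at fell relative to 5 of the other 6 ARNT probe sets, at -0.68 to -0.47, and its difference from 231016_s_at was -0.06 (0.669). No pair of EPAS1, HIF1AN or VHL was called. The test concerns probe sets, and which transcripts they read was not analysed here.

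Across the 9 arrays, 3 other genes lay nearest to EGLN3 222847_s_at, by the Euclidean distance of values taken relative to each gene's own control mean, among 17096 genes with a mean of at least 6. They were HK2 (0.567), P4HA1 (0.596) and PFKFB3 (0.733). For HK2 the PIK75 and TGX221 differences were -1.67 and -0.38, beside -1.56 and -0.59 for EGLN3. Nearest to EGLN1 223046_at were ARLN (0.254), NGLY1 (0.273) and LHX9 (0.281), with PIK75 differences of -0.96, -1.05 and -0.94.

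Against control, TGX221 gave 0 called members of 24 by limma, where 0.269% of all probe sets were called. Without adjustment 8 members had p below 0.05, as had 16.4% of all probe sets. They were EGLN2 and ARNT 210828_s_at with positive differences, and EGLN1 223046_at, 221497_x_at and 224314_s_at, EGLN3 219232_s_at, ARNT 231016_s_at and VHL 1559227_s_at with negative ones. For 3 members the TGX221 arrays all lay above control (EGLN2, ARNT 210828_s_at and EPAS1 241055_at), and 10.9% of all probe sets lay above control in this way (21.6% in either direction). With array 3 of TGX221 left out, 2 members were called, EGLN2 and VHL 1559227_s_at, and calls over all probe sets went from 147 to 959. Both inhibitor comparisons share the 3 control arrays, so their values are set side by side only.

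PIK75 and TGX221 arrays were also compared with each other, at doses that differ. Of the members 2 were higher and 5 lower with PIK75, 7 in all. Over all probe sets 37.2% were called, 20.3% higher and 16.9% lower. The lower ones were ARNT2 (-0.75, limma adjusted p = 1.56e-06), EGLN1 223046_at (-0.75, 0.000177), ARNT 218221_at (-0.34, 0.000406), EGLN3 222847_s_at (-0.97, 0.0268) and HIF1A (-0.19, 0.0404). EGLN1 223045_at (0.25, 0.0296) and EPAS1 200878_at (0.22, 0.0424) were higher. Of these, EGLN3 222847_s_at was not called without PIK75 array 1 (0.0754), PIK75 array 5 (0.0625) or TGX221 array 3 (0.113). Its call was also lost with the actin covariate (-0.89, 0.147) and with a trended and robust estimate of spread (0.101). With that covariate the HIF1A call was lost as well (0.134), where the covariate is actin. Only 4 members were called without PIK75 array 1 or 5. For HIF1A the adjusted p was 0.0535 to 0.138 with any 1 PIK75 array, or TGX221 array 2 or 3, left out. Neither of the higher ones was called under another scaling, and both were called in 1 of the 9 fits without 1 array, that without control array 3 (0.0413 and 0.0473). Of the other fits, that without PIK75 array 1 called neither (0.0605 and 0.0756). The other EGLN3 probe set, 219232_s_at, was at -0.39 (0.0515) and was called without control array 3 (0.0343), control array 5 (0.0169) or PIK75 array 1 (0.0287). VHL 1559227_s_at was at 0.24 (0.0757), or 0.35 (0.00994) without TGX221 array 3. The EGLN2 difference between the inhibitors was 0.18, with an interval of -0.02 to 0.38 (adjusted p = 0.138). For both EGLN3 probe sets and for EGLN1 223046_at and 221497_x_at the group means ranked control, TGX221 and PIK75 from high to low, with control and TGX221 not separated by the test, nor the inhibitors for 221497_x_at and 219232_s_at. For EGLN1 224314_s_at the means were 9.35 in control, 9.18 with PIK75 and 9.11 with TGX221, and for 223045_at they were 7.17, 7.51 and 7.26. For EGLN2 PIK75 ranked highest and control lowest, and only that pair was separated by the test.

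Other genes of the pathway were taken from lists and read by their brightest probe set. Genes listed as partners of VHL or of its ligase moved in both directions with PIK75, 3 of 6 higher and 2 lower (35.2% and 25.2% of all genes). Their median was 0.11 beside 0.09 for all genes. RBX1, the RING subunit that recruits the ubiquitin-conjugating enzyme, fell by 0.59 (limma adjusted p = 9.16e-07). The elongin subunit ELOB rose by 0.32 (0.000174) on the deposited scale and was at -0.03 with the hybridization spikes, and the scaffold CUL2 was not called (0.06, 0.313). The list's 2 falls became 1 without control array 1 or 5 or PIK75 array 3 or 5, where the call of the VHL-binding protein VBP1 (-0.14, 0.0356) was lost.

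Regulators and coactivators of HIF were also split, with 6 of 21 higher and 7 lower (35.2% and 25.2% of all genes) and a median of -0.02. CITED2, which competes with HIF1A for its coactivators and is itself hypoxia-induced, fell by 1.32 (limma adjusted p = 4.7e-07), but of its further probe sets 1 was called higher and 1 lower. USP33, a deubiquitinase, fell by 0.80 (1.77e-07), and EAF2, a transcription elongation factor that binds VHL, was at -0.71 (1.75e-06). The coactivator CREBBP fell by 0.51 (5.48e-05) with 2 other probe sets called higher, while SART1 rose by 0.53 (2.84e-06).

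The relatives of HIF that share its bHLH-PAS fold, and their coactivators, had 4 of 13 higher and 5 lower (35.2% and 25.2% of all genes). Their median was 0.00. The circadian pair CLOCK (-0.93, limma adjusted p = 3.52e-07) and BMAL1 (-0.68, 6.54e-07) fell with PIK75, while of the other CLOCK probe sets 1 was called higher and 2 lower. BMAL1 was also the 1 gene of this list called with TGX221 (-0.27, 0.0479), where 1.21% of all genes were called. NCOA2, a coactivator, fell by 0.77 (1.5e-05), with 1 other probe set called higher, and NPAS4, an activity-induced neuronal factor, rose by 0.35 (0.000832), which became -0.0032 with the hybridization spikes.

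Known HIF target genes other than the members were lower as a group in count, 22 of 25 lower and 0 higher with PIK75, with a median of -1.16 beside 0.09 for all genes, of which 25.2% were lower. PDK1, which keeps pyruvate out of the mitochondrion, fell by 2.56 (limma adjusted p = 6.62e-09), with 1 other probe set called higher. The glycolytic enzymes PGK1 (-0.95, 1.31e-07) and ENO1 (-0.83, 1.95e-07) and the mTOR inhibitor DDIT4 (-1.80, 6.11e-07) fell too. The 3 not called were ERO1A, CA12 and PFKFB4. The list was drawn up with results of these arrays known, so its direction is not independent evidence. The array means of the list were 10.87, 11.08 and 10.48 in control, 9.58, 9.91 and 9.57 with PIK75, and 10.34, 10.63 and 10.39 with TGX221. Control array 3 was thus the highest and control array 5 the lowest of the controls, as for both EGLN3 probe sets and for EGLN1 223046_at, 221497_x_at and 224314_s_at. The same order held for EPAS1 241055_at, ARNT 218222_x_at and 233714_at, HIF1AN 218525_s_at and VHL 1559227_s_at, so it was not particular to EGLN1 and EGLN3. With TGX221 the list median was -0.38, 24 of 25 values were below 0 and 1 gene was called lower, ANKRD37 (-0.47, 0.0488), where 0.399% of all genes were. That call was lost in 8 of the 9 fits that left out 1 array, and 2 genes were called without TGX221 array 3. PIK75 lay below TGX221 for 17 of the 25 in the direct comparison, with a median difference of -0.71, where 22.3% of all genes were lower.

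Other oxygen-using dioxygenases are enzymes of the same cofactor class as the EGLN proteins. With PIK75, 12 of 20 were lower and 3 higher (25.2% and 35.2% of all genes), with a median of -0.24. ASPH, an aspartyl hydroxylase, fell by 1.03 (limma adjusted p = 1.67e-07), with 2 other probe sets called higher and 3 lower. The histone demethylase KDM4C (-0.93, 5.8e-07), the DNA demethylase TET2 (-0.87, 1.15e-06) and the collagen lysyl hydroxylase PLOD2 (-1.76, 4.85e-06) fell as well. JMJD6 rose by 0.56 (1.07e-06). With TGX221 none of the 20 was called by limma.

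**Figure D4:**
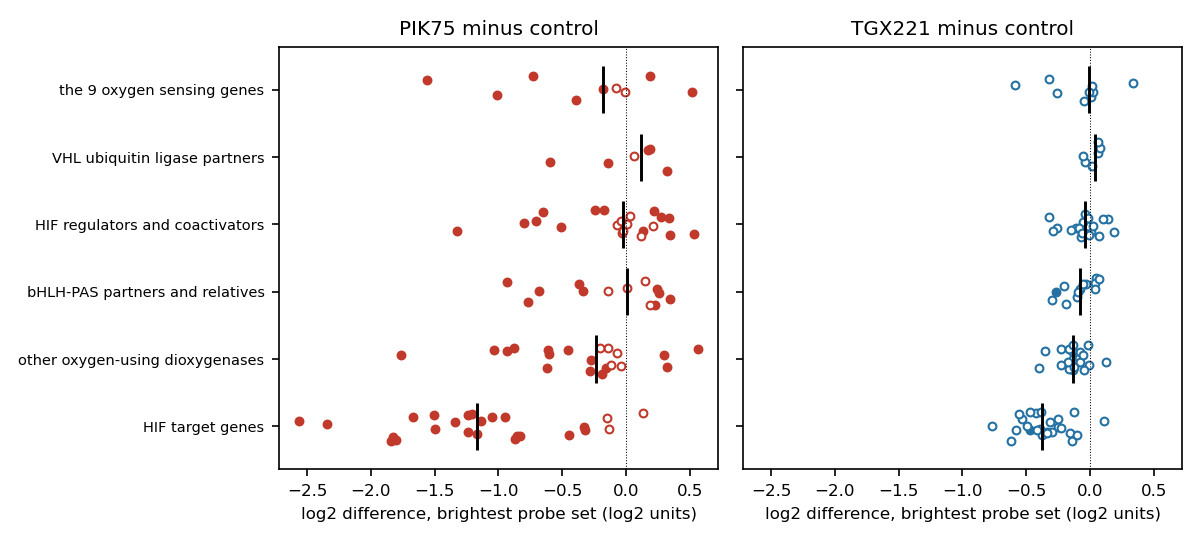
Log2 difference from control of the brightest probe set of each of the 9 members and of the genes of 5 lists, for PIK75 and for TGX221, with filled points where the limma adjusted p was below 0.05 and a black line at the median. The HIF target genes have a median of -1.16 with PIK75 and -0.38 with TGX221, while the other lists with PIK75 have medians from -0.24 to 0.11.

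**Figure D5:**
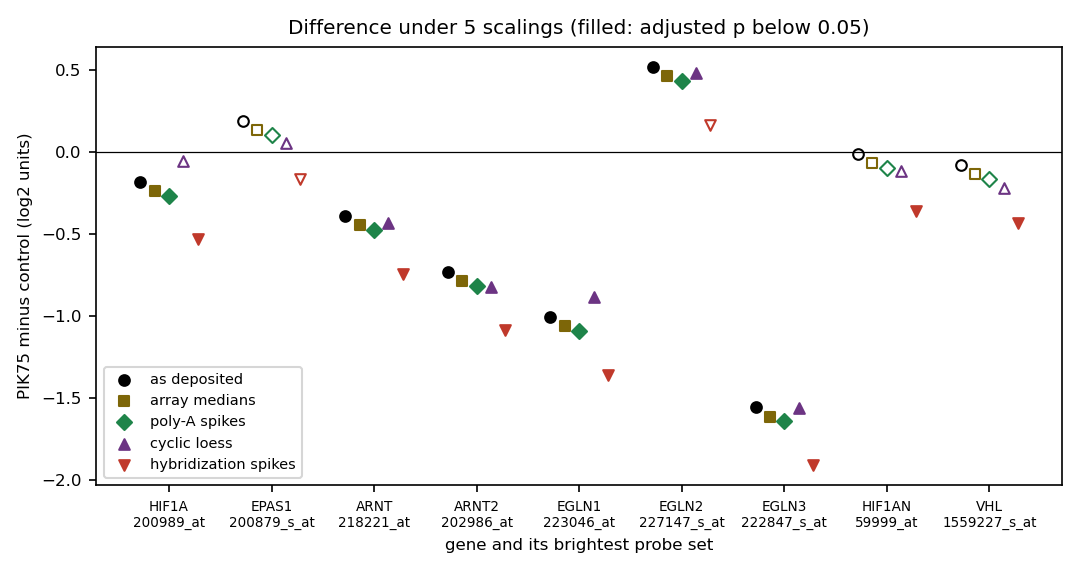
PIK75 minus control, log2, of the brightest probe set of each of the 9 members under 5 scalings of the arrays, with filled points where the limma adjusted p was below 0.05. EGLN3, EGLN1, ARNT2 and ARNT are lower and called under all 5, and EGLN2 is 0.52 as deposited and 0.17, not called, with the hybridization spikes.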

How the data were processed

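RNA of H69 cells was hybridized to 9 Affymetrix arrays from 2 ug of total RNA each, per the labels. The deposited log2 values had been made with RMA, per the submitters' processing notes (version not given). RMA sets the arrays to a common scale, so a change shared by most genes cannot be measured. The deposited probe-set values do not have the same spread on all arrays, as given above. The values were used as deposited, with 0 sample columns unmapped. Array number, 3 per group, limits the precision.

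Of 54675 probe sets, 62 are Affymetrix controls. A platform annotation, which can be old, gave 41091 exactly 1 symbol, 1801 several and 11721 none. All 54613 non-control probe sets were fitted with limma 3.58.1 (R 4.3.3; lmFit, eBayes; 3 group means, no covariate; 6 residual and 5.63 prior degrees of freedom), with Benjamini-Hochberg adjustment. No exact test was used, since 3 against 3 cannot give a p under 0.1. A second fit took the brightest probe set of each of 19775 genes, and another the differences between probe sets of 1 gene. The probe-set and pair fits were also run on simulated data, with independent noise and far fewer changed probe sets than were called with PIK75. That run cannot show how the fits perform on these arrays. Promoter letters were searched with Python 3.11.15.

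All members are named. From each list up to 6 genes with the smallest p for PIK75 could be named, and for EGLN3 and EGLN1 the 3 nearest genes. Of 116 list entries 108 were matched. CHGA and the 3 target genes not called fall outside that rule and were chosen after their values were seen. Members and lists were chosen with earlier results of these data known. Alternatives were other scalings, filters, spreads, thresholds, sample sets, an actin covariate, a replicate block and each array left out. Those for the lists were chosen after seeing the data.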

Additional observations from a re-analysis of the deposited data

How the results depend on the processing

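With PIK75 against control, 13 members were called. The count was 8 at an adjusted p below 0.01, 5 with a minimum of 1.5-fold and 7 of 9 on brightest probe sets, and 11 to 14 with 1 array left out. Members higher, 5, became 3 (array medians, actin covariate, probe sets above the median brightness, adjusted p below 0.01), 2 (poly-A spikes, cyclic loess, brightest probe sets) or 0 (hybridization spikes, 1.5-fold), and were 3 to 6 with 1 array left out, 3 being without control array 5. Members lower, 8, became 18 with the hybridization spikes and 5 with brightest probe sets, the stricter p or 1.5-fold (7 to 8 with 1 array left out). Of the 54613 probe sets, 16554 were higher and 10846 lower as deposited, 10317 and 12179 with array medians, 5066 and 11743 with poly-A spikes, 847 and 37576 with hybridization spikes, and 8709 and 11908 with cyclic loess.

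With TGX221 the 0 calls became 2 with poly-A spikes (1 higher, 1 lower), 2 with hybridization spikes (both lower), 3 with array weights (2 higher, 1 lower) and 0 to 2 with 1 array left out (0 to 1 higher and 0 to 1 lower). PIK75 against TGX221 gave 7 calls, 17 with hybridization spikes (all lower), 3 at the stricter p or 1.5-fold (all lower) and 4 to 8 with 1 array left out. The 2 higher became 1 (above the median brightness, 2 groups only) or 0 (every other scaling, brightest probe sets, replicate block, stricter p, 1.5-fold; 0 to 2 with 1 array left out). The 5 lower became 3 with the actin covariate (3 to 6 with 1 array left out).

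List counts with PIK75 also moved. VHL partners higher, 3, became 1 (array medians, poly-A spikes) or 0 (hybridization spikes), and lower, 2, became 4 (hybridization spikes) or 1 (cyclic loess, replicate block; 1 to 2 with 1 array left out). Regulators higher, 6, became 3 (poly-A spikes) or 1 (hybridization spikes), and lower, 7, became 15 (hybridization spikes). The bHLH-PAS genes higher, 4, became 1 (poly-A spikes, cyclic loess) or 0 (hybridization spikes), and lower, 5, became 8 (hybridization spikes). Dioxygenases higher, 3, became 1 (hybridization spikes). HIF targets higher were 0 to 1 with 1 array left out, and HIF targets lower with TGX221, 1, became 6 (poly-A spikes), 12 (hybridization spikes), 0 (replicate block) and 0 to 2 with 1 array left out.

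Where a difference called in either setting changed sign, the setting was the hybridization spikes. Against control, PIK75 then gave -0.13 (EPAS1 200878_at), -0.23 (EPAS1 241055_at), -0.062 (ARNT 210828_s_at), -0.14 (218222_x_at), -0.24 (230619_at), -0.23 (233714_at), -0.27 (233724_at), -0.014 (EGLN1 223045_at), -0.28 (HIF1AN 226648_at) and -0.31 (VHL 203844_at). Against TGX221 it gave -0.065 (EPAS1 200878_at), -0.23 (241055_at), -0.22 (ARNT 210828_s_at), -0.27 (230619_at), -0.038 (EGLN1 223045_at), -0.21 (224314_s_at), -0.22 (HIF1AN 218525_s_at), -0.21 (226648_at) and -0.23 (VHL 203844_at). Of list and marker genes it gave -0.033 (ELOB), -0.18 (ELOC), -0.29 (CUL2), -0.16 (NEDD8), -0.0032 (NPAS4), -0.15 (SYP), -0.10 (PECAM1), -0.13 (VWF), -0.25 (KDR), -0.091 (COL1A1), -0.072 (COL3A1), -0.065 (DCN), -0.23 (LUM), -0.15 (CD3E) and -0.017 (CD14). A further 91 member values changed sign while called in neither setting, 11 of them with these spikes, such as EPAS1 200879_s_at (-0.16) and EGLN2 between the inhibitors (-0.11). The shift follows from the spikes reading higher on the PIK75 arrays. The cause of the other changes was not tested.

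Replicate numbers are given in the titles. Over all probe sets, correlations of arrays with the same number lay within the range of those with different numbers, or just beyond it. Deviations from the group means correlated at -0.07 to 0.09 (control and PIK75), 0.0053 to 0.05 (control and TGX221) and 0.07 to 0.22 (PIK75 and TGX221) for arrays of the same number. For arrays of different numbers the ranges were -0.10 to 0.09, -0.21 to 0.15 and -0.26 to 0.23, in that order. EGLN1 221497_x_at nevertheless deviated from its group means by 0.32, 0.24 and 0.19 on the control, PIK75 and TGX221 arrays numbered 3 and by -0.34, -0.27 and -0.20 on those numbered 5. Of the HIF targets, 96%, 84% and 80% lay above their group means on the arrays numbered 3. On those numbered 1, 72% did in control and 28% with PIK75. Other members differed, such as HIF1A, at -0.09, 0.01 and 0.07 on the control, PIK75 and TGX221 arrays numbered 3. Any pairing by number is a hint from some of these values, not the design. Between control and PIK75, the arrays numbered 3 correlated best with each other, and the other arrays with one of another number. With the replicate block, 25970 rather than 27400 probe sets were called for PIK75, 0 rather than 147 for TGX221 and 16344 rather than 20304 between the inhibitors. By limma HIF1A (adjusted p = 0.0738) and EPAS1 200878_at (0.0583) lost their PIK75 calls, and HIF1A (0.146), EPAS1 200878_at (0.107) and EGLN1 223045_at (0.0682) those between inhibitors, while EGLN3 219232_s_at gained one (0.006). Signal near background limits the dim probe sets of EPAS1, ARNT and VHL.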
